A study of Rattus with 6 samples.

Results

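The genes described are 40 components and regulators of DNA replication, chosen by name from knowledge of the process and matched by symbol to the gene column of the deposited table. Earlier results of these data were known when they were chosen, so their counts against all genes are a description. All 40 were found among its 16690 genes. They were measured by RNA sequencing of stromal stem cells grown from the femur and tibia marrow of Sprague Dawley rats. Of 6 libraries, 3 came from rats made to model chronic kidney disease, written CKD here, and 3 came from healthy rats, written control, and the genotype is given as wild-type throughout. The labels give neither how CKD was induced nor the age of the animals. They name the cells as the source of the RNA in the design text, but exosomes, vesicles that cells release, in the extraction protocol. The comparison asks which transcripts are altered in CKD.

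Chromosome replication is prepared in G1, when the origin recognition complex, Cdc6 and Cdt1 load the ring-shaped MCM helicase onto DNA, a step called licensing. In S phase, kinases, Mcm10, Cdc45 and the GINS complex turn this ring into an active helicase. DNA polymerase alpha with primase then lays down primers, and polymerases delta and epsilon copy the strands together with the PCNA clamp. Many of these genes are transcribed under E2F factors as cells leave quiescence, so their transcripts are widely used to mark cycling cells. In bulk RNA, a larger share of cycling cells and more transcript per cycling cell cannot be told apart.

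The libraries did not divide by group alone. Recovered depth was 34404037 to 46892613 fragments per library. Across genes, which are not independent replicates, Pearson r was 0.996 between CKD replicates 2 and 3, 0.998 between control replicates 2 and 3, and at most 0.967 for any other 2 libraries. The tag for the disease model contradicts title and column code in a library of each group, calling CKD replicate 1 a control and control replicate 2 a CKD library. Levels are given as FPKM, a fragment count scaled to gene length and library depth. Of 12 stromal markers, all of which passed the filter used below, 6 had a higher and 6 a lower log2 level in CKD, and limma called 0 of them. Among these, Thy1 had 505 to 572 FPKM in CKD and 590 to 801 FPKM in control, whereas Cd44, named after its values were seen, had 73.2 to 91.2 FPKM in CKD and 56.8 to 62.5 FPKM in control. The protocol reports the cells as negative for CD45, a marker of blood cells. Transcripts of 18 haematopoietic and macrophage markers were nevertheless present, all 18 at higher levels in both CKD replicates 2 and 3 than in either of control replicates 2 and 3. Summed, they came to 299, 3336 and 2245 FPKM in CKD replicates 1, 2 and 3, against 407, 22.3 and 14.4 FPKM in control replicates 1, 2 and 3. No marker was at 0 in the CKD libraries or in control replicate 1, whereas C1qc was at 0 in control replicate 2, and C1qc, C1qb and Adgre1 were at 0 in control replicate 3.

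Transcripts of most of the 40 replication genes were higher in CKD. In 35 of the 40 genes every CKD library lay above every control library, whereas this held for 16.9% of all genes in the table. In none of the 40 did every CKD library lie below every control library, whereas this held for 1433 of the 16690 genes in the table. The 5 genes with overlapping groups were Rrm1, Tyms, Pola2, Gins3 and E2f1. The ratio of group means in FPKM ran from 0.998 for Rrm1 to 6.07 for Mcm10, with a median of 2.06 and 22 genes at 2 or more. Among all tested genes the median ratio was 1.04, and 5.54% reached 2. The sets are unlike, since the 40 include 7 genes below the filter used for the test and this background has none.

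**Figure D1:**
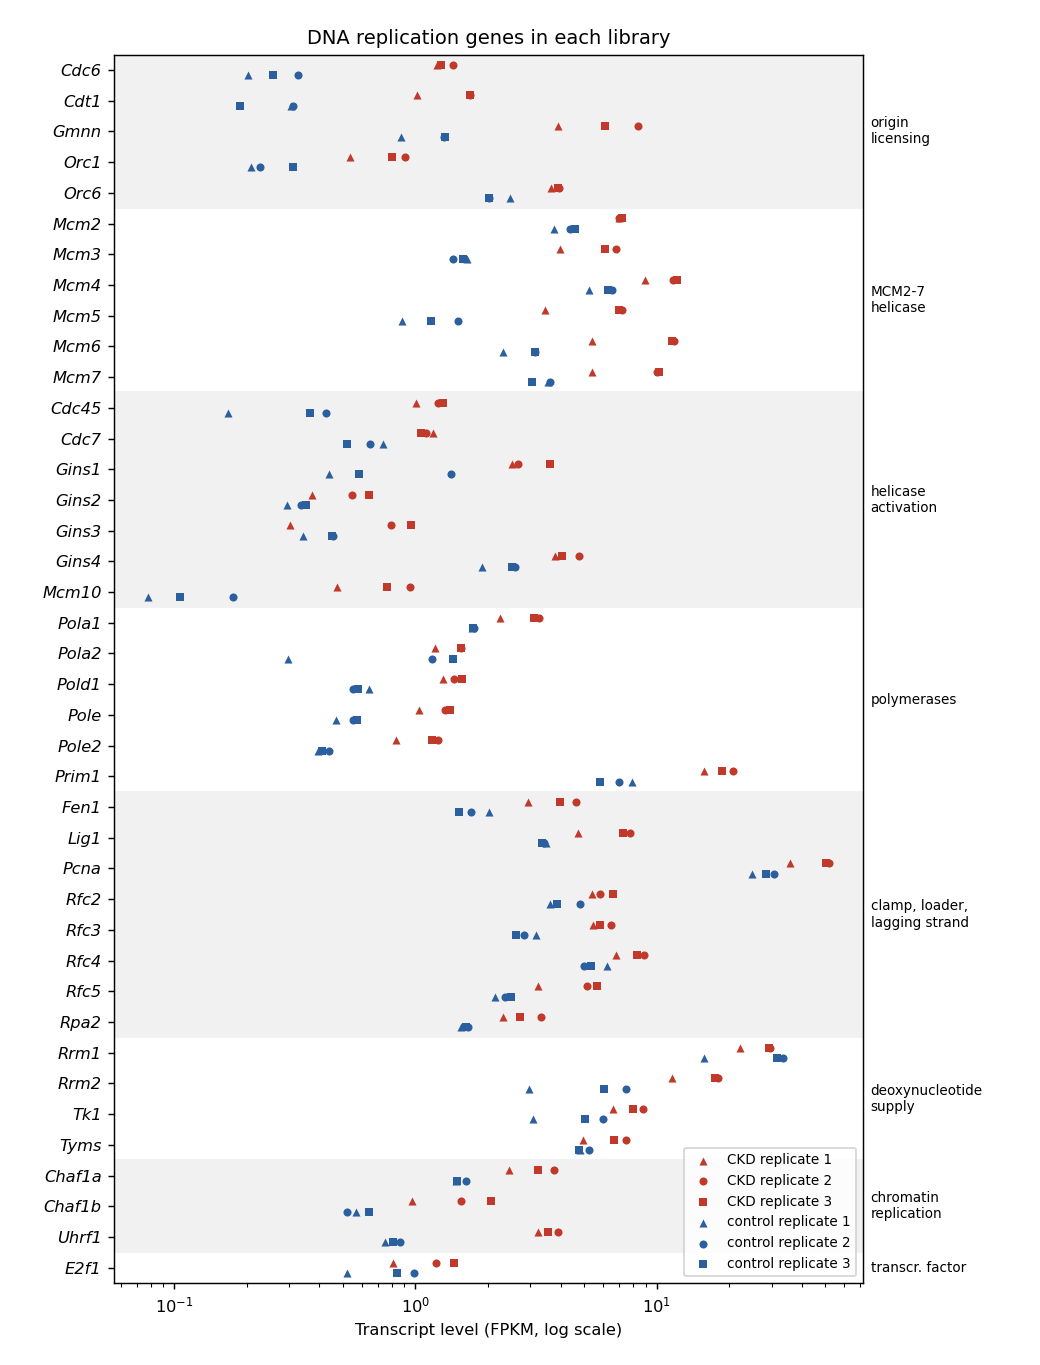
Transcript level of each of the 40 DNA replication genes in FPKM on a log axis, grouped by role, with CKD libraries in red above control libraries in blue; each symbol is 1 library. In 35 rows the 3 red symbols lie to the right of all blue ones, and CKD replicate 1 (red triangle) is the lowest CKD library in 39 rows.

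The groups were tested with limma on log2(FPKM + 1), a scale on which fold changes of low genes come out smaller. A gene entered the test when 3 or more libraries had 1 FPKM or more, and is called when its Benjamini-Hochberg adjusted p is under 0.05. Of the 40 genes 33 entered. All 33 log2 fold changes were positive, with a median of 0.73 against 0.05 over all tested genes, of which 59.4% were positive. Of the 33, 11 were called higher in CKD, against 1.33% of the 10638 genes tested, and 0 were called lower, against 0.733%. At an unadjusted p under 0.05, 30 were higher, against 14.6%. A group of 7 genes entered through CKD libraries alone, with no control library at 1 FPKM, so the counts over the 33 are a description. Among the other 26 genes 6 were called. With all 40 genes kept and no filter, limma called 5 (Cdc6, Prim1, Pold1, Rfc3 and Uhrf1), against 0.485% of all genes, and 35 had an unadjusted p under 0.05 and were higher, against 12.9% of all genes.

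Which genes were called turned on the libraries in the fit. Leaving out CKD replicate 2 or CKD replicate 3, limma called 0 of the 33 genes (background 0.0282% and 0.0094%). At an unadjusted p under 0.05, 29 were higher each time, against 8.33% and 8.24% of all tested genes. Leaving out control replicate 2 or control replicate 3, it also called 0 (0.0094% each), and 30 were higher at an unadjusted p under 0.05, against 8.04% and 8.34%. Without CKD replicate 1 there were 28 calls (10.7%), without control replicate 1 there were 18 (6.89%), and without both there were 31 (34.7%). A filter on the mean level left 29 of the 40 genes and gave 5 calls (0.511%), limma-voom on recovered fragment counts 7 (0.573%), and limma-voom with sample quality weights 31 (25.2%). With groups by the disease model tag limma called 0 of the 33 genes (0% of all), 1 was higher at an unadjusted p under 0.05 (4.18% of all), and the median log2 fold change was 0.44.

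**Figure D2:**
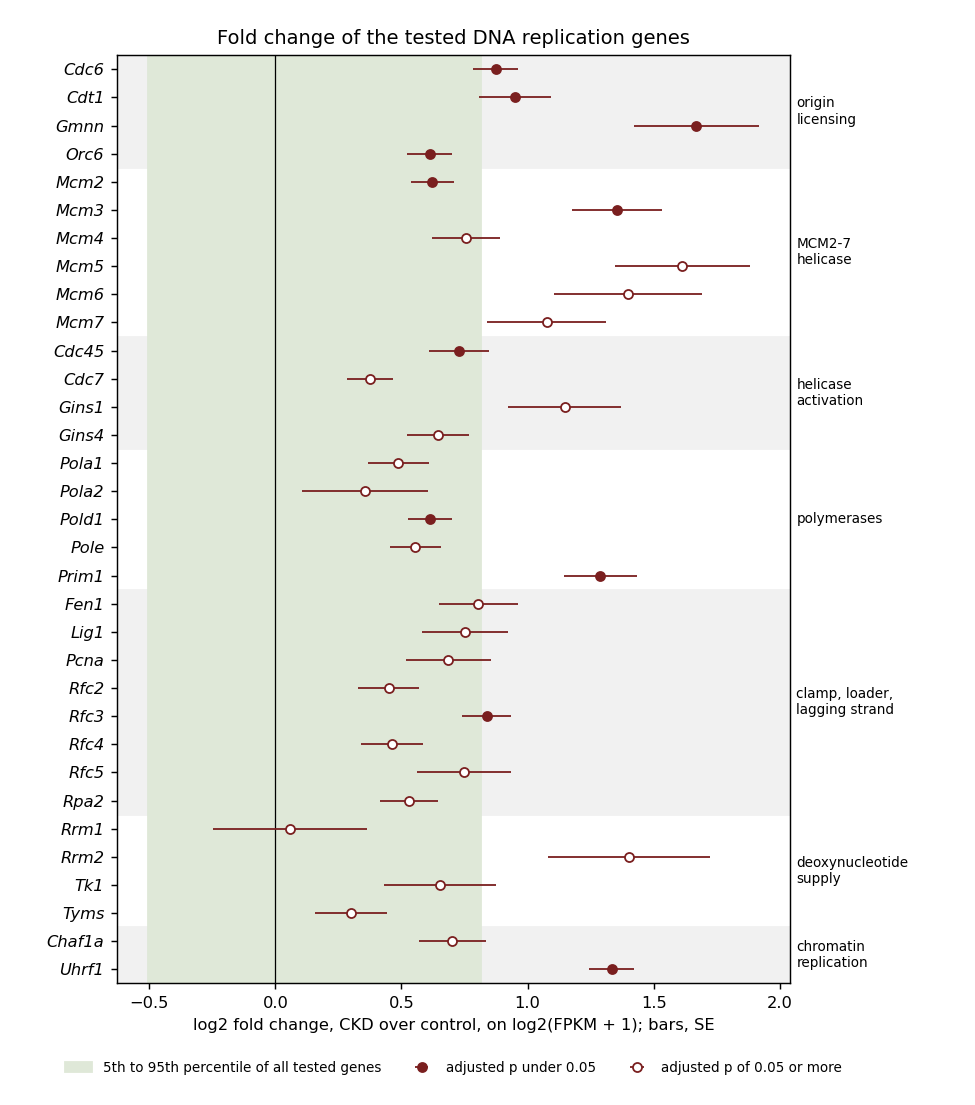
Log2 fold change, CKD over control, of the 33 tested replication genes on log2(FPKM + 1), with bars of 1 SE; filled symbols have a limma adjusted p under 0.05. The green band spans the 5th to 95th percentile of all 10638 tested genes, from -0.51 to 0.81, and the genes run from 0.06 for Rrm1 to 1.67 for Gmnn.

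Of the 5 genes of origin licensing and its control, 4 were tested and all 4 were called higher, against 1.33% of all tested genes. Cdt1 and Cdc6 entered the test through CKD libraries alone, and without a filter Cdc6 kept its call while Cdt1, Gmnn and Orc6 had limma adjusted p-values of 0.0549, 0.0632 and 0.0658. Gmnn (NCBI Gene 291137) encodes geminin, the inhibitor that binds Cdt1 and blocks relicensing. The level of Gmnn was 3.90, 8.35 and 6.09 FPKM in CKD replicates 1, 2 and 3, against 0.876, 1.31 and 1.33 FPKM in control replicates 1, 2 and 3, with a log2 fold change of 1.67 ± 0.25 SE (limma adjusted p = 0.0439). Its lowest CKD library was above every control, and the CKD libraries differed more among themselves than the controls did.

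Cdt1 (NCBI Gene 292071), the loading factor that geminin inhibits, was low throughout. Its levels were 1.02, 1.69 and 1.69 FPKM in CKD and 0.305, 0.310 and 0.187 FPKM in control, or 88, 130 and 163 fragments against 32, 29 and 16, with a log2 fold change of 0.95 ± 0.14 SE (limma adjusted p = 0.0439). The ATPase gene Cdc6 (NCBI Gene 360621), which recruits the helicase together with Cdt1, had 1.22, 1.43 and 1.28 FPKM in CKD and 0.203, 0.326 and 0.258 FPKM in control libraries, a log2 fold change of 0.87 ± 0.09 SE (limma adjusted p = 0.0231). On the FPKM scale the group means of Cdt1 differed by 5.48 times and those of Cdc6 by 5.01 times.

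Of the origin recognition complex, which marks the origins, Orc6 (NCBI Gene 291927) rose. It had 3.63, 3.95 and 3.90 FPKM in CKD and 2.47, 2.01 and 2.01 FPKM in control libraries, a log2 fold change of 0.61 ± 0.09 SE (limma adjusted p = 0.0439). Orc1, the largest subunit of the complex, did not reach the filter, with 0.537, 0.904 and 0.798 FPKM in CKD and 0.208, 0.227 and 0.309 FPKM in control. The groups of Orc1 did not overlap either, and without a filter its limma adjusted p was 0.0865. Orc2, Orc3, Orc4 and Orc5, read from a further list of replication genes, were not called. Their log2 fold changes were 0.44, 0.03, 0.12 and 0.08 (limma adjusted p = 0.120, 0.880, 0.356 and 0.669).

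The 6 subunits of the MCM2-7 ring, the motor of the replicative helicase, were each higher in every CKD library than in every control library. This held for 16.9% of all genes in the table. Of the 6 subunits 2 were called, against 1.33% of all tested genes. Mcm3 (NCBI Gene 316273) had 3.97, 6.80 and 6.11 FPKM in CKD and 1.64, 1.43 and 1.58 FPKM in control libraries, a log2 fold change of 1.35 ± 0.18 SE (limma adjusted p = 0.0399). Mcm2 (NCBI Gene 312538) had 6.95, 6.96 and 7.2 FPKM in CKD, close to each other, and 3.75, 4.37 and 4.57 FPKM in control libraries, a log2 fold change of 0.62 ± 0.08 SE (limma adjusted p = 0.0427).

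The largest log2 fold change of the ring was that of Mcm5, which missed the threshold narrowly. Its levels were 3.44, 7.18 and 7.01 FPKM in CKD and 0.876, 1.51 and 1.16 FPKM in control libraries, a log2 fold change of 1.61 ± 0.27 SE (limma adjusted p = 0.0503). Mcm4, the subunit with the highest mean level, had 9.0, 11.7 and 12.1 FPKM in CKD and 5.26, 6.54 and 6.30 FPKM in control libraries, a log2 fold change of 0.76 ± 0.14 SE (limma adjusted p = 0.0595). Mcm6 averaged 9.60 ± 3.64 FPKM in CKD against 2.85 ± 0.481 FPKM in control, and Mcm7 8.56 ± 2.75 FPKM in CKD against 3.40 ± 0.324 FPKM in control (SD, n = 3 each; limma adjusted p = 0.0815 and 0.0862). For Mcm3, Mcm5, Mcm6 and Mcm7, CKD replicate 1 lay well below the other CKD libraries and yet above all controls.

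Among the 7 genes that convert the ring into a working helicase, 4 were tested. Of these Cdc45 (NCBI Gene 287961), a subunit of that helicase, was called, against 1.33% of all tested genes. It had 1.00, 1.24 and 1.30 FPKM in CKD and 0.167, 0.428 and 0.364 FPKM in control, or 89, 98 and 129 fragments against 18, 41 and 32, with a log2 fold change of 0.73 ± 0.12 SE (limma adjusted p = 0.0471). It passed the filter through CKD libraries only, the lowest of them just over the limit. Mcm10, an activator of the helicase, was the gene with the largest ratio of means, at 0.472, 0.948 and 0.761 FPKM in CKD and 0.0782, 0.176 and 0.105 FPKM in control. These levels rest on 149, 267 and 268 fragments in CKD and 30, 60 and 33 in control. Mcm10 was below the filter, and without a filter its limma adjusted p was 0.0749.

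The 4 GINS genes, whose products form 1 complex, did not share 1 pattern. Gins4 had the highest mean level of the activation group, with 3.8, 4.75 and 4.06 FPKM in CKD and 1.89, 2.58 and 2.52 FPKM in control libraries, a log2 fold change of 0.65 ± 0.12 SE (limma adjusted p = 0.0663). Gins1 had 2.53, 2.66 and 3.60 FPKM in CKD against 0.436, 1.40 and 0.585 FPKM in control, where replicate 2 stood above the other controls, with a log2 fold change of 1.15 ± 0.22 SE (limma adjusted p = 0.0708). Gins2 and Gins3 did not reach the filter. Gins2 had 0.373, 0.545 and 0.642 FPKM in CKD and 0.292, 0.334 and 0.352 FPKM in control, with no overlap. Gins3 had 0.303, 0.793 and 0.955 FPKM in CKD and 0.342, 0.456 and 0.452 FPKM in control, and its CKD replicate 1 was the lowest of all 6 libraries. Cdc7, the kinase that phosphorylates the MCM ring, averaged 1.12 ± 0.0653 FPKM in CKD libraries against 0.633 ± 0.107 FPKM in controls (SD, n = 3 each; limma adjusted p = 0.102), and was the 1 gene of the 40 that was highest in CKD replicate 1.

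Of the 5 polymerase genes tested, Prim1 and Pold1 were called, against 1.33% of all tested genes. Prim1 (NCBI Gene 246327), the catalytic primase subunit that makes RNA primers, had 15.7, 20.8 and 18.6 FPKM in CKD and 7.95, 7.01 and 5.81 FPKM in control libraries, a log2 fold change of 1.29 ± 0.15 SE (limma adjusted p = 0.0291). Pold1 (NCBI Gene 59294), the catalytic subunit of polymerase delta, which copies the lagging strand, had 1.30, 1.45 and 1.56 FPKM in CKD and 0.644, 0.553 and 0.581 FPKM in control libraries, a log2 fold change of 0.61 ± 0.09 SE (limma adjusted p = 0.0429). Pold1 passed the filter through CKD libraries only. Every CKD library exceeded every control in both genes.

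The polymerase epsilon genes, for the enzyme of the leading strand, did not reach the threshold. Pole averaged 1.25 ± 0.192 FPKM in CKD libraries against 0.530 ± 0.0561 FPKM in controls (SD, n = 3 each; limma adjusted p = 0.0595). Pole2, its accessory subunit, was below the filter at 0.831, 1.24 and 1.17 FPKM in CKD and 0.396, 0.436 and 0.409 FPKM in control. Pola1, the catalytic subunit of polymerase alpha, averaged 2.86 ± 0.536 FPKM in CKD libraries against 1.74 ± 0.0201 FPKM in controls (SD, n = 3 each; limma adjusted p = 0.106). Its accessory subunit gene Pola2 overlapped between groups, with 1.20, 1.55 and 1.54 FPKM in CKD and 0.296, 1.17 and 1.43 FPKM in control (limma adjusted p = 0.443). Control replicate 1 stood apart there, with 47 fragments against 166 and 185 in the other controls.

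The sliding clamp, its loader and the enzymes of the lagging strand included 8 genes. In all 8 every CKD library lay above every control library, against 16.9% of all genes in the table. Of the 8 limma called 1, against 1.33% of all tested genes. Their log2 fold changes lay in a narrow range, between 0.45 and 0.84. Rfc3 (NCBI Gene 288414), a subunit of the clamp loader, was the 1 called gene, with 5.43, 6.48 and 5.82 FPKM in CKD and 3.17, 2.81 and 2.61 FPKM in control libraries, a log2 fold change of 0.84 ± 0.10 SE (limma adjusted p = 0.0297). Pcna, the clamp itself, was the most abundant member of this group, with 35.6, 52.0 and 50.6 FPKM in CKD and 24.8, 30.6 and 28.5 FPKM in control libraries, a log2 fold change of 0.69 ± 0.17 SE (limma adjusted p = 0.106). Its group means differed by 1.65 times.

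The other clamp loader genes Rfc2, Rfc4 and Rfc5 had log2 fold changes of 0.45 ± 0.12, 0.46 ± 0.12 and 0.75 ± 0.19 SE (limma adjusted p = 0.122, 0.121 and 0.106). Fen1, the nuclease that trims RNA primers, averaged 3.84 ± 0.859 FPKM in CKD libraries against 1.75 ± 0.259 FPKM in controls (SD, n = 3 each; limma adjusted p = 0.0700). Lig1, the ligase that seals Okazaki fragments, averaged 6.57 ± 1.63 FPKM in CKD libraries against 3.42 ± 0.0705 FPKM in controls (limma adjusted p = 0.0929). For Rpa2, a subunit of the protein that coats single-stranded DNA, the means were 2.78 ± 0.511 FPKM in CKD and 1.61 ± 0.0542 FPKM in control (limma adjusted p = 0.0858). In Lig1 and Rpa2 the spread of the CKD libraries was far wider than that of the controls.

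The genes of deoxynucleotide supply ranged widely, with log2 fold changes between 0.06 and 1.40. Of the 4 limma called 0, against 1.33% of all tested genes called higher. At an unadjusted p under 0.05, 2 were higher, against 14.6%. Rrm1, the large subunit of ribonucleotide reductase, was among the most abundant of the 40 genes and was nearly level between groups, with 22.1, 29.4 and 29.2 FPKM in CKD and 15.7, 33.5 and 31.7 FPKM in control libraries, a log2 fold change of 0.06 ± 0.31 SE (limma adjusted p = 0.931). The sign of this log2 fold change turned in 9 of 19 alternatives, among them both rescalings of the libraries. Rrm2, the small subunit of the same enzyme, which is known to be made in S phase, had 11.6, 17.9 and 17.4 FPKM in CKD and 2.97, 7.44 and 6.08 FPKM in control libraries, a log2 fold change of 1.40 ± 0.32 SE (limma adjusted p = 0.0931). The table lists a second gene under the product name of Rrm2, LOC100359539, so fragments may be shared between them and the level of Rrm2 is uncertain. That gene had 4.81, 7.95 and 8.58 FPKM in CKD and 1.36, 3.85 and 2.30 FPKM in control.

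Tyms, which makes thymidylate, overlapped between groups, with 4.97, 7.46 and 6.69 FPKM in CKD and 4.81, 5.23 and 4.76 FPKM in control (limma adjusted p = 0.280). Tk1, the thymidine kinase of the salvage route, averaged 7.79 ± 1.08 FPKM in CKD libraries against 4.70 ± 1.5 FPKM in controls (SD, n = 3 each; limma adjusted p = 0.172). Control replicate 1 was the lowest library in Rrm1, Rrm2 and Tk1.

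Uhrf1 (NCBI Gene 316129), which recruits the maintenance DNA methyltransferase to newly copied DNA, had the lowest adjusted p of the 33 tested genes. It stood at 3.23, 3.89 and 3.56 FPKM in CKD and 0.747, 0.863 and 0.811 FPKM in control libraries, a log2 fold change of 1.33 ± 0.09 SE (limma adjusted p = 0.00942). Both groups were tight and far apart, and no control library reached 1 FPKM, so it entered the test through CKD libraries alone. With all 40 genes and no filter, Uhrf1 and Cdc6 shared the lowest limma adjusted p, 0.0184. With the replicate number as a block, Uhrf1 was the 1 replication gene called, against 0.564% of all tested genes. With 1 library left out its limma adjusted p was 0.0992 at most.

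The CAF-1 subunits, which place histones on new DNA, were not called. Chaf1a averaged 3.14 ± 0.662 FPKM in CKD libraries against 1.53 ± 0.0825 FPKM in controls (SD, n = 3 each; limma adjusted p = 0.0670). Chaf1b was below the filter, with 0.969, 1.54 and 2.06 FPKM in CKD and 0.566, 0.518 and 0.642 FPKM in control. E2f1, the transcription factor of the list, did not reach the filter and overlapped between groups, with 0.807, 1.22 and 1.45 FPKM in CKD and 0.521, 0.99 and 0.836 FPKM in control.

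CKD replicate 1 and control replicate 1 were more alike (Pearson r 0.967) than either was to any other library. CKD was therefore also set against control between these 2 and, separately, within the other 4 libraries, as a description. Those 4 were not alike across groups. CKD replicates 2 and 3 against control replicates 2 and 3 gave r of 0.916 to 0.930, the lowest of all pairs. Between CKD replicate 1 and control replicate 1, 39 of the 40 replication genes were higher in the CKD library, against 50.9% of all genes in the table, and the median ratio was 1.78. Between these 2 libraries the summed haematopoietic markers were lower in the CKD library, at 299 FPKM against 407 FPKM. Between CKD replicates 2 and 3 and control replicates 2 and 3, 39 of the 40 replication genes were higher in both CKD libraries than in both controls, against 46.6% of all genes, and the median ratio was 2.26. Both held for 38 genes, against 25.4% of all. Both hold of necessity for the 35 replication genes, and the 16.9% of all genes, with every CKD library above every control. These counts are therefore no separate evidence. In the 4 libraries the summed haematopoietic markers were higher in CKD, at 3336 and 2245 FPKM against 22.3 and 14.4 FPKM. For 29 of the 40 genes the ratio was larger among these 4 libraries than between CKD replicate 1 and control replicate 1. The cause of these differences was not tested.

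The exceptions were Gins3, lower in CKD replicate 1 than in control replicate 1, and Rrm1, not higher in CKD among the other 4 libraries. Cdt1 had a ratio of 3.34 between CKD replicate 1 and control replicate 1 and of 6.80 among the other libraries. Cdc45 went the other way, with 6.01 and 3.21, and Pola2 too, with 4.06 and 1.19. With the mean of the haematopoietic markers as a covariate, limma called 0 of the 33 genes, against 0.0658% of all tested genes. In that fit 20 were higher at an unadjusted p under 0.05, against 6.48% of all tested genes, and all 33 log2 fold changes were positive, against 51%, with a median of 0.60.

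**Figure D3:**
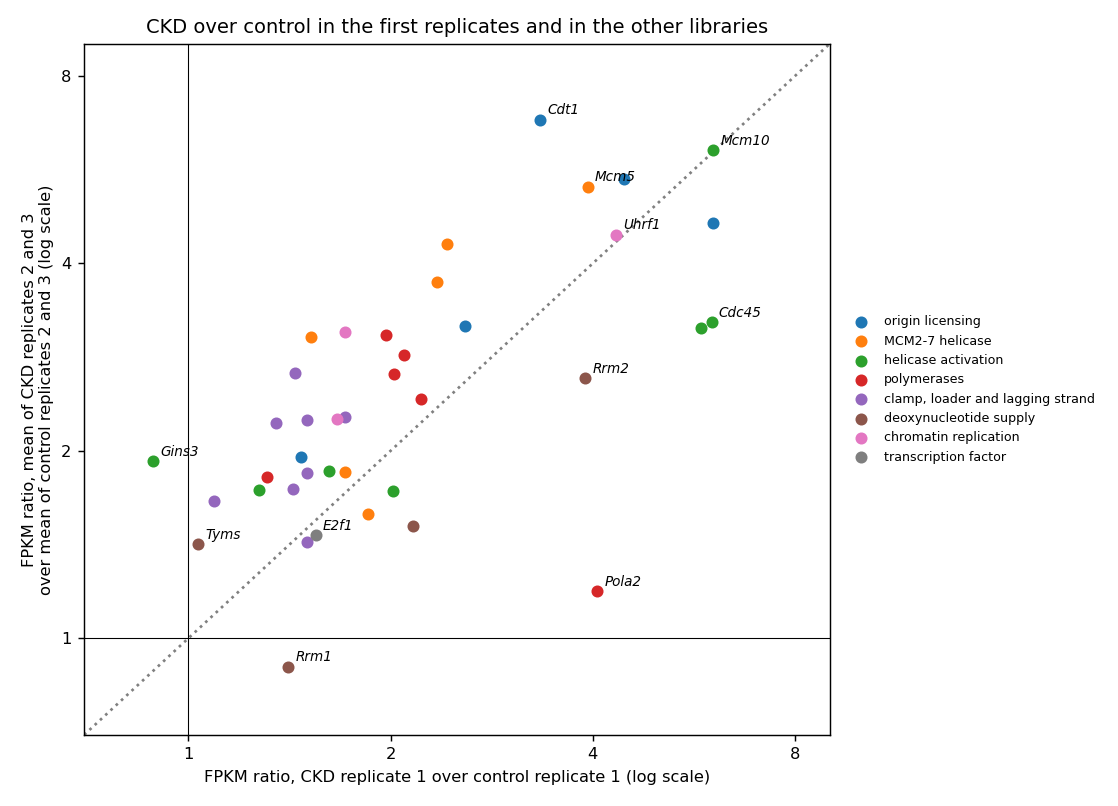
FPKM ratio of CKD replicate 1 to control replicate 1 (x axis) against the ratio of the mean of CKD replicates 2 and 3 to the mean of control replicates 2 and 3 (y axis), both on log axes, for each of the 40 replication genes, coloured by role. Gins3 is the 1 gene left of 1 and Rrm1 the 1 gene below 1, and 29 genes lie above the dotted line of equal ratios.

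**Figure D4:**
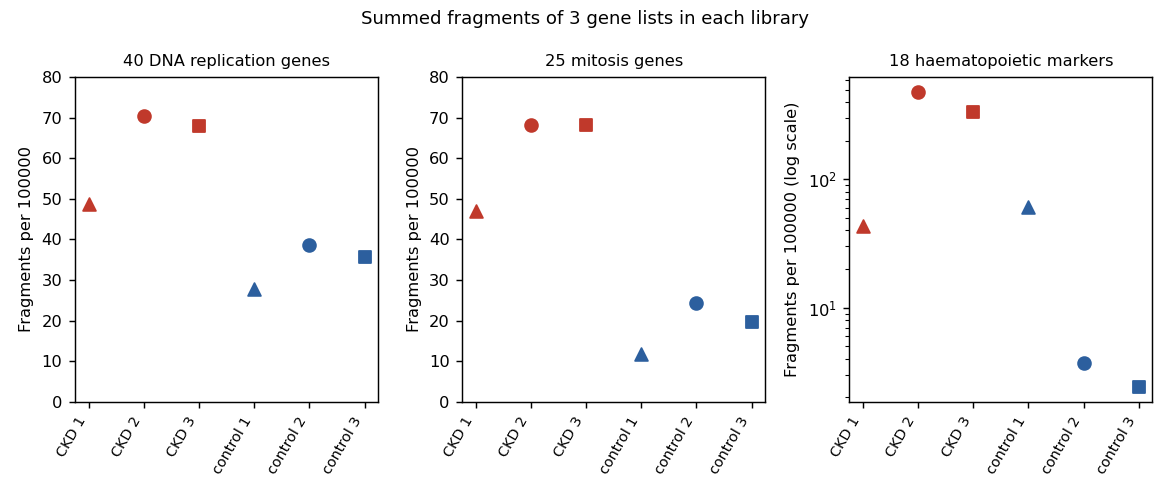
Fragments summed over the 40 replication genes, the 25 mitosis genes (both on linear axes) and the 18 haematopoietic markers (log axis) per 100000 fragments of each library, CKD in red and control in blue. The replication genes held 48.8, 70.4 and 67.9 per 100000 fragments in CKD replicates 1, 2 and 3, against 27.8, 38.6 and 35.8 in control replicates 1, 2 and 3, and the markers 43.2, 481 and 333 against 60.5, 3.69 and 2.41.

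Other genes of replication and of the cell cycle were read from 3 further lists. Of 49 other replication genes 38 were tested, and 4 were called higher, against 1.33% of all tested genes, and 0 lower. They were Dbf4, the activating subunit of the Cdc7 kinase, Dnmt1, the maintenance DNA methyltransferase, Donson, which takes part in helicase assembly, and Fbxo5, an inhibitor of the anaphase-promoting complex. Dbf4 had 3.89, 4.80 and 4.41 FPKM in CKD and 1.91, 1.98 and 2.16 FPKM in control libraries, a log2 fold change of 0.83 ± 0.09 SE (limma adjusted p = 0.0282). Donson and Fbxo5 had log2 fold changes of 0.78 ± 0.13 and 0.91 ± 0.15 SE (limma adjusted p = 0.0471 and 0.0475), and both entered the test through CKD libraries alone, with no control library at 1 FPKM. Without a filter 3 genes of the list were called, against 0.485% of all genes called higher. Dnmt1 had 5.53, 6.92 and 6.67 FPKM in CKD and 3.50, 3.56 and 3.64 FPKM in control libraries, a log2 fold change of 0.69 ± 0.10 SE (limma adjusted p = 0.0429). The median log2 fold change of these 38 genes was 0.36, against 0.73 for the 33 replication genes described above and 0.05 for all tested genes. Of the 38, 35 had a positive log2 fold change, against 59.4% of all tested genes. Pold4, a subunit of polymerase delta, was the 1 gene of the 48 found that was lower in every CKD library than in every control. This held for 1433 of the 16690 genes in the table. The log2 fold change of Pold4 was -0.38 ± 0.11 SE (limma adjusted p = 0.142).

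Of 28 genes that control the passage of G1 into S, 24 were tested and 3 were called higher, against 1.33% of all tested genes. They were Ccne2, a cyclin of the G1 to S transition, Ccna2, the cyclin of S phase, and Mybl2, a transcription factor of cycling cells. Ccna2 had 9.70, 15.2 and 12.9 FPKM in CKD and 1.65, 3.88 and 2.84 FPKM in control libraries, a log2 fold change of 1.87 ± 0.26 SE (limma adjusted p = 0.0438). Ccne2 and Mybl2 had log2 fold changes of 0.93 ± 0.12 and 1.32 ± 0.20 SE (limma adjusted p = 0.0357 and 0.0445), and both entered the test through CKD libraries alone. Without a filter 1 gene of the list was called, against 0.485% of all genes called higher. Ccnd1, the cyclin of early G1, was not called, with 45.8, 82.7 and 88.0 FPKM in CKD and 36.8, 80.0 and 73.5 FPKM in control (limma adjusted p = 0.793). Cdkn1a, the inhibitor p21, had 66.2, 48.3 and 47.3 FPKM in CKD and 94.2, 55.9 and 59.4 FPKM in control, with overlapping groups (limma adjusted p = 0.441). The median log2 fold change of the list was 0.20.

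Of 25 genes of mitosis 24 were tested, 11 were called higher, against 1.33% of all tested genes, and the median log2 fold change was 1.26. Foxm1 and Bub1b, a checkpoint gene, were called but entered the test through CKD libraries alone. With no filter 3 genes of the list were called, against 0.485% of all genes called higher. Top2a, which untangles copied chromosomes, had 8.20, 13.0 and 13.8 FPKM in CKD and 2.05, 3.85 and 2.81 FPKM in control libraries, a log2 fold change of 1.70 ± 0.25 SE (limma adjusted p = 0.0439). Plk1 and Aurka, mitotic kinases, had log2 fold changes of 1.52 ± 0.18 and 1.13 ± 0.13 SE (limma adjusted p = 0.0297 and 0.0308). Those of Foxm1, a transcription factor of mitotic genes, and Ube2c, a conjugating enzyme of the anaphase-promoting complex, were 0.87 ± 0.11 and 1.76 ± 0.24 SE (limma adjusted p = 0.0347 and 0.0417). Mki67, the proliferation marker, was not called, with 4.64, 8.99 and 8.96 FPKM in CKD and 1.23, 2.35 and 2.01 FPKM in control (limma adjusted p = 0.0587). The differences between the lists were not tested.

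**Figure D5:**
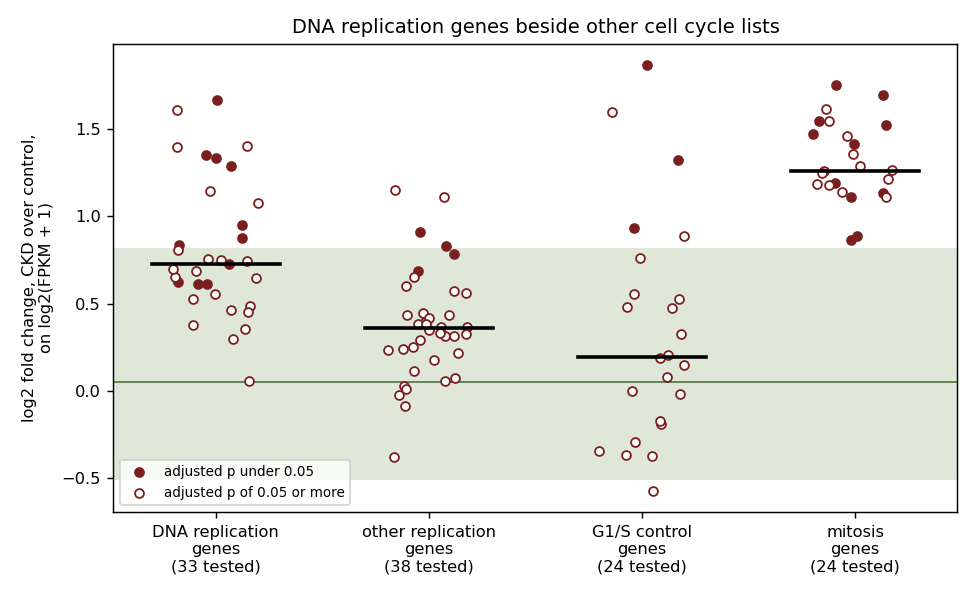
Log2 fold change, CKD over control, on log2(FPKM + 1) of each tested gene in 4 lists; filled symbols have a limma adjusted p under 0.05, black bars are list medians (0.73, 0.36, 0.20 and 1.26), and the green band and line are the 5th to 95th percentile and the median of all tested genes. The horizontal spread of the points is random.

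Of the 40 replication genes, 31 had a q-value under 0.05 and a higher level in CKD in the authors' deposited table, against 6.72% of all its genes, and 0 were lower at that threshold, against 4.6%. The authors' deposited table gave Uhrf1 a log2 fold change of 2.06 with a q-value of 8.18e-39, the lowest of the 40. The 9 genes above 0.05 in the authors' deposited table were Gins2, Gins3, Pola2, Rfc2, Rfc4, Rrm1, Tyms, Tk1 and E2f1, with Rrm1 at -0.09 as the 1 negative log2 fold change. These values come from the same 6 libraries and the same contrast, so they are no independent evidence.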

How the data were processed

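The authors deposited 1 table with decimal commas. Per the file headers it gives an FPKM value per gene and library, means of normalized counts, a fold change with its log2, and p-values with q-values. Tools named in the submitters' processing notes include HISAT2 2.1.0, HTSeq 0.11.2, DESeq2 1.22.2 and the build mRatBN7.2, with neither order nor settings. Gene names and NCBI Gene numbers are the table's.

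Grouping followed the column code, which matches the titles apart from the number 4 that the title of CKD replicate 3 carries. The design text speaks of biological replicates, but no label assigns a library to an animal, so the p-values speak of spread among libraries, which may be technical. The library names of CKD replicates 1 and 3 share a start, as do those of control replicates 1 and 2. Whether such libraries share a source is not stated. No 2 libraries were as alike as sampling noise alone would make them (chi-square over degrees of freedom 5.77 or more), and each counted as 1 replicate. That value cannot show whether 2 libraries came from the same animal.

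The test was limma 3.58.1 in R 4.3.3, two-sided, with a trend of variance on mean level and Benjamini-Hochberg adjustment over 10638 genes. Its code was also run on simulated counts. These treated the libraries of a group as alike apart from depth, unlike the data, so that run does not measure its accuracy here. A count test had been the plan for a table of counts. Fragment counts recovered from FPKM and group means were whole within 0.01 for all 100140 values, and served for depth and for limma-voom. At median gene length 3 fragments equal 0.0198 to 0.0270 FPKM, counting error only.

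The members and lists were chosen with earlier results of these data known. Values in every library are given for called members, the most abundant gene of each role and genes below the filter, and for some others chosen after their values were seen. Non-members named are the called genes of the 2 other replication and G1 to S lists, the 4 called mitosis genes with the lowest adjusted p, and 8 fixed genes, some of them by fold change alone. Others were named after their values were seen, namely Bub1b, Cd44, Pold4, Orc2, Orc3, Orc4, Orc5 and haematopoietic markers at 0. Of 5 endothelial markers 0 were tested, and of 5 erythroid markers 0 were found in the table. Of 12 stromal markers, all tested, and of the 15 haematopoietic markers out of 18 that entered the test, limma called 0. Shares over all tested genes were 1.33% called higher and 0.733% called lower. At an unadjusted p under 0.05, 10 haematopoietic markers were higher, against 14.6% of all tested genes. No sequences were used here.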

Additional observations from a re-analysis of the deposited data

How the results depend on the processing

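Direction was stable: the median log2 fold change of the tested replication genes was positive in every alternative run, and Rrm1 was the 1 gene of the 33 whose sign turned. Its log2 fold change was -0.0074 with size factors, -0.0014 with upper quartile scaling, -0.0237 in limma-voom, -0.2448 with sample weights, -0.1470 when both first replicates were left out and -0.0219 with libraries sharing a name start averaged, and ran from -0.2778 to 0.2464 with 1 library left out. The number of calls was not stable, and the cause was not tested. The 220 genes called in all, 11 of them replication genes, became 133 and 5 without a filter, 99 and 5 with a filter on the mean, 123 and 7 in limma-voom (61 higher and 62 lower, against 142 and 78), 5596 and 31 with sample weights, 5851 and 31 when both first replicates were left out, 18 and 0 with the haematopoietic covariate, and 0 and 0 with groups by the disease model tag. With 1 library left out they ran from 6 to 1602 and from 0 to 28. The median of 0.73 was 0.98 with a pseudocount of 0.1, 0.94 in limma-voom, 1.03 with sample weights and 0.44 by the tag, and 0.64 to 0.86 with 1 library left out. Libraries with the same replicate number had correlations of deviations from the group means of 0.04, -0.03 and 0.11. With so few libraries these values cannot show whether the numbers pair the libraries. The replicate block gave 88 calls, 1 of them a replication gene. Of the 11 called genes, Uhrf1 was called in the most alternatives, 13 of 19, and Cdc45 in the fewest, 6 of 18. Each of the 11 was called in 2 of the fits with 1 library left out. Adjusted p-values of the 11 lay between 0.00942 and 0.0471.

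Depth limits the low genes: the fewest fragments of any replication gene in a library were 16, and the median was 236.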

Other observations

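Some relations between replication genes were noticed in the values and are given as descriptions. The small subunit of ribonucleotide reductase relative to the large 1, Rrm2 over Rrm1 in FPKM, was 0.524, 0.609 and 0.596 in CKD replicates 1, 2 and 3, against 0.189, 0.222 and 0.192 in control replicates 1, 2 and 3. This ratio is as uncertain as the level of Rrm2, which may share fragments with LOC100359539. Within the MCM2-7 ring, whose subunits join in equal number, the most abundant subunit exceeded the least abundant by 2.61, 1.73 and 1.98 times in CKD, against 6.01, 4.58 and 5.40 times in control. Mcm4 was the most abundant subunit in every library except CKD replicate 2, where Mcm6 was. Prim1 over Pola1, the primase and polymerase subunits of 1 complex, was 6.96, 6.40 and 6.02 in CKD and 4.63, 3.99 and 3.34 in control. Gmnn over Cdt1, inhibitor over target, overlapped between groups, at 3.83, 4.95 and 3.60 in CKD and 2.87, 4.23 and 7.13 in control.

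Ptprc, which encodes CD45, had 0.783, 15.5 and 11.4 FPKM in CKD and 1.33, 0.0140 and 0.0204 FPKM in control, and Csf1r, a receptor of macrophages, 1.42, 25.7 and 21.0 FPKM in CKD and 2.20, 0.290 and 0.152 FPKM in control (limma adjusted p = 0.201 and 0.192). Itgb1, the stromal surface gene for CD29, had 1098, 847 and 963 FPKM in CKD and 985, 1204 and 1154 FPKM in control (limma adjusted p = 0.435).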
